A study of Mus musculus with 48 samples.

Results

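The genes described here encode the respiratory chain, which was read from a count table of RAW264.7 cells, a transformed mouse macrophage line. Members were chosen by gene symbol as subunits of complexes I to V, and 99 of the 49568 rows of the table met the rule. They comprised 45 genes of complex I, 4 of complex II, 10 of complex III, 21 of complex IV and 19 of complex V, of which 86 are encoded in the nucleus and 13 in the mitochondrial genome. Cells were kept for 72 h in 8 conditions. These were PBS, the peptide LE, SE or PE alone at 100 µg/ml, IFN-γ alone at 5 ng/ml, and the 3 combinations of a peptide and IFN-γ. LE, SE and PE are synthetic peptides from a human HLA-DR β chain, taken from HLA-DRb1*0301, HLA-DRb1*0401 and HLA-DRb*0402. These alleles are known, in that order, for risk of lupus, risk of rheumatoid arthritis and protection from it. All 8 groups are the same mouse line with no genetic change, and all results are limited to that 1 line. Results rest on the 24 libraries that the labels name by letter, 3 per group, with 16498562 to 26929356 counts each.

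All 20 genes of a list of IFN-γ targets rose in IFN-γ against PBS, and none of the 24 letter-named libraries went against its label on that list. A second set of 24 libraries, labelled HLA and a number, was kept out of the results because the rule for the members names the letter-named libraries. On the same list 12 of its 24 libraries went against their label. The 10 macrophage markers summed to 7083 to 12380 CPM (counts scaled by the library total), although 1 of them, Mrc1, was at only 0.152 to 2.75 CPM. The 5 fibroblast markers summed to at most 1.88 CPM. The study calls the replicates of this line biological and speaks of independent experiments. Nothing in the labels shows whether replicates were separate cultures, so p-values measure the spread between these libraries. RNA was bulk, so fewer cells and less RNA per cell cannot be told apart.

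The respiratory chain passes electrons from NADH (complex I) and succinate (complex II) through ubiquinone to complex III, then through cytochrome c to complex IV, which reduces oxygen. Complexes I, III and IV pump protons across the inner mitochondrial membrane, and complex V, the ATP synthase, uses the gradient to make ATP. Complex II is made of nuclear gene products alone, whereas the other complexes join nuclear subunits with a few hydrophobic core subunits made inside the mitochondrion. Activated macrophages are known for shifting between oxidative and glycolytic metabolism.

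Of the 13 mitochondrial genes, 6 had almost no reads. mt-Co2, mt-Atp8, mt-Co3, mt-Nd3 and mt-Nd4l had 0 counts in all 24 libraries, and mt-Atp6 had at most 2. The study counted only reads that aligned to a single place. Of these 6 genes 5, all but mt-Atp8, have an annotated copy of their own in the nuclear genome of the reference. In GRCm38 the copies lie side by side on the minus strand at chr1:24611535-24616197, annotated as 7 unprocessed pseudogenes. The following stretch of mt-Co2 (chrM:7313-7372, plus strand) stands above the same stretch of its copy Gm28661 (chr1:24615206-24615265, minus strand); they are shown because no base differs, and all letters are therefore in lower case.
mt-Co2: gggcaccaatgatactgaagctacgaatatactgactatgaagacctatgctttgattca
Gm28661: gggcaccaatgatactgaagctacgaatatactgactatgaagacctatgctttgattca
Over its whole length Gm28661 was identical to mt-Co2 at 681 of 681 bases. The copies of mt-Co3 (783 of 783 bases), mt-Atp6 (678 of 678) and mt-Nd4l (294 of 294) were also identical, and that of mt-Nd3 differed at 1 of 345 bases. The copies themselves held at most 14 counts in any letter-named library, except Gm29216, the copy of mt-Co1, which reached 377. mt-Atp8 has no annotated copy of its own and was not aligned to the 7 copies. It lies at chrM:7766-7969, after mt-Co2 (chrM:7013-7696), and its end overlaps the start of mt-Atp6 (chrM:7927-8607). That overlap is part of the sequence shared with Gm10925, the copy of mt-Atp6. Whether the rest lies in the unannotated stretch between the copies of mt-Co2 and mt-Atp6 was not tested.

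mt-Co1 and mt-Nd4 share only part of their length with a copy and were counted. The next pair shows the start of Gm29216 (chr1:24616138-24616197, minus strand) beside mt-Co1 (chrM:6381-6440, plus strand), with the bases that differ in capitals.
mt-Co1: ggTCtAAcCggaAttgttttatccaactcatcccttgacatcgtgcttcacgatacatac
Gm29216: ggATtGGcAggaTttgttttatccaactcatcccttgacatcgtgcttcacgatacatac
After these 6 differences both sequences were identical to the end of the copy, leaving 1053 of the 1545 bases of mt-Co1 outside it. In mt-Nd4, 502 of 1378 bases lay outside Gm28439. Which part of either gene the counts came from was not tested, so their levels per length are not set beside those of other genes. Another annotated gene, Gm13340, also shared 100-base windows with mt-Co1, and Gm13341 did so with mt-Co2. mt-Nd1, mt-Nd5, mt-Nd6 and mt-Cytb shared no 100-base window with another annotated transcript, and mt-Nd2 shared 3.2% of its windows. Complex V therefore has no measured mitochondrial member, and 7 of the 13 mitochondrial genes entered the tests together with 81 of the 86 nuclear genes. The other 5 nuclear genes were Cox6b2, Cox7b2 and Cox8b, with 0 counts throughout, Cox8c, with at most 1, and Ndufa4l2, with at most 10.

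Promoters of the nuclear members were read from RefSeq (GRCm38.p6), which held 67 of the 86. In the 250 bases before the start, both strands, the palindromic NRF1 consensus, seen in capitals in Atp5k below, was found in 4 of 67 members (5.97%) and in 0.877% of all 27025 genes, and the ETS core bound by GABP (CCGGAA or TTCCGG) in 20 of 67 (29.9%) and in 13.6% of all genes. NRF1 and GABP are known activators of genes for mitochondrial proteins. Each motif was counted on its own. The 4 promoters below belong to members on which later results turn, with NRF1 and ETS matches in capitals. They are Uqcrh (complex III, chr4:116075071-116075320), Atp5k (complex V, chr5:108434400-108434649), Cox6a1 (complex IV, chr5:115348959-115349208) and Ndufs4 (complex I, chr13:114388095-114388344), all on the minus strand.
Uqcrh: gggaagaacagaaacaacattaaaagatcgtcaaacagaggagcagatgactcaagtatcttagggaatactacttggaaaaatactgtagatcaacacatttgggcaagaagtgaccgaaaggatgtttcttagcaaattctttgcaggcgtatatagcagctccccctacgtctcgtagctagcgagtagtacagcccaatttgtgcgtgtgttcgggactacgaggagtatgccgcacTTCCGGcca
Atp5k: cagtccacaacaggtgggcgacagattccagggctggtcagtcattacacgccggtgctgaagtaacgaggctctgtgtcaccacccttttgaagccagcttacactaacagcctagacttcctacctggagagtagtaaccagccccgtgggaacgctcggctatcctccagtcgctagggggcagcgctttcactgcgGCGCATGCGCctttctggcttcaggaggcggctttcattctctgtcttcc
Cox6a1: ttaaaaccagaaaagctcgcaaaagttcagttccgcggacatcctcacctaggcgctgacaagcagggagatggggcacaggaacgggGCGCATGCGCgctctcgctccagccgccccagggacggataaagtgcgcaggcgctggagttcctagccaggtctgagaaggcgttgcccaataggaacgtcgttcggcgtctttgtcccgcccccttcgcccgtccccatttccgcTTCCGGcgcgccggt
Ndufs4: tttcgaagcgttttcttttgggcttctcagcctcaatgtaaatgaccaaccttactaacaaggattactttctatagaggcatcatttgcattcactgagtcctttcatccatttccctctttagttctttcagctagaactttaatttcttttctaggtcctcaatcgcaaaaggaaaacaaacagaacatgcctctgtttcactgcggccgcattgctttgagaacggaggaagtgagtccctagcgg
Uqcrh held 1 ETS core, Atp5k 1 NRF1 site, Cox6a1 1 of each, and Ndufs4 neither motif.

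In cells without IFN-γ, respiratory chain genes took 2.77 to 3.43% of all counts, and in cells with IFN-γ 1.97 to 2.36%, without overlap. Both genomes contributed. The nuclear members summed to 1.35% ± 0.0183 (SD, n = 3) in PBS and 1.15% ± 0.0312 in IFN-γ, and the mitochondrial members to 1.75% ± 0.303 and 0.935% ± 0.0497. Mitochondrial counts in PBS were highest in replicate 1, at 2.10%, against 1.53% and 1.63% in the other two libraries. With LE and IFN-γ the mitochondrial share was 1.15 to 1.30%, above all 9 other libraries with IFN-γ (0.813 to 0.991%), whereas the nuclear share was the lowest of the 8 groups at 1.01 to 1.08%. PE with IFN-γ had the highest nuclear share among the groups with IFN-γ, at 1.22 to 1.28%.

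**Figure D1:**
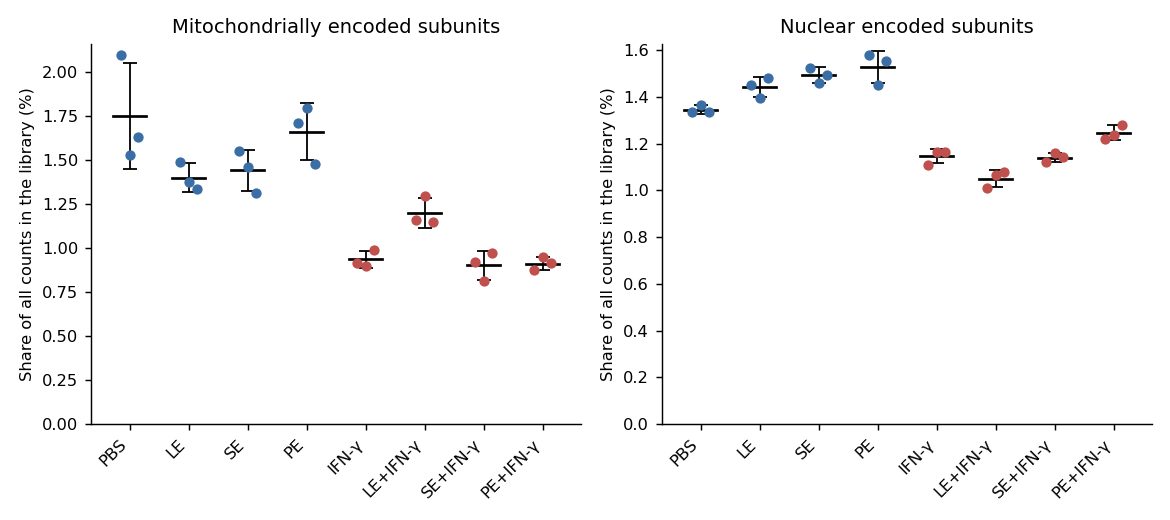
Share of all counts (%, y axis) taken by the mitochondrially encoded (left) and nuclear encoded (right) subunits in each of 24 libraries by group (x axis). Points are libraries, bars the mean and SD of 3; groups with IFN-γ (red) sit below those without (blue) in both panels, and LE with IFN-γ has the highest mitochondrial and the lowest nuclear share of the red groups.

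Compared per length, as mean CPM per kilobase of exon over the 24 libraries, mt-Cytb (2440) and mt-Nd1 (1465) stood far above the leading nuclear members Cox4i1 (410), Cox6a1 (386) and Atp5b (384). By complex, the summed nuclear level fell from 3489 CPM ± 80.4 in PBS to 2998 CPM ± 124 in IFN-γ for complex I, from 848 ± 36.1 to 673 ± 23.8 for complex II, from 1660 ± 48.7 to 1355 ± 27.0 for complex III, from 2481 ± 88.0 to 2130 ± 116 for complex IV and from 4975 ± 15.6 to 4305 ± 95.3 for complex V. In each of the 5 complexes the 3 libraries of one group lay outside the range of the other.

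IFN-γ alone lowered the mitochondrial genes more than the nuclear ones. Of the 7 mitochondrial genes tested, 6 fell and 5 of them by more than 1.5-fold, with a median log2 fold change of -1.14. Of the 81 nuclear members, 42 fell, 1 rose and the median was -0.20, while the median of all 12242 genes tested was -0.01. Calls were made at an adjusted p below 0.05. Of all genes 39.7% were called, 19.5% as lower and 20.2% as higher, and 8.28% were lower by more than 1.5-fold. The count of members called ranged from 33 to 42 with any one replicate number left out, against 49 with all.

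mt-Cytb, the mitochondrial subunit of complex III that carries both haems b, was measured at 5145, 4072 and 4289 CPM in PBS and at 1253, 1300 and 1392 CPM in IFN-γ. The groups lie far apart, and its log2 fold change was -1.76 (SE 0.10, adjusted p = 1.1e-07). mt-Nd1, a membrane subunit of complex I next to the ubiquinone site, read 2815, 1865 and 1979 CPM in PBS and 773, 815 and 924 CPM in IFN-γ (log2 -1.39, SE 0.14, adjusted p = 1.4e-05). The other proton-pumping subunits of complex I followed, with mt-Nd2 at -1.21, mt-Nd4 at -1.14 and mt-Nd5 at -0.86. mt-Co1, the catalytic subunit of complex IV, changed least among the 6, from 7789, 5630 and 6150 CPM to 5158, 4941 and 5336 CPM (log2 -0.32, SE 0.11, adjusted p = 0.035). Its lowest PBS library exceeded its highest IFN-γ library by a narrow margin. That call was lost without PBS replicate 1 (-0.18, adjusted p = 0.081) and without replicate 1, 2 or 3 of both groups (-0.17, -0.39 and -0.40). mt-Nd6, the one gene of complex I on the other strand, was at 5.07 to 6.80 CPM in PBS and 3.68 to 4.84 CPM in IFN-γ and missed the threshold (log2 -0.46, adjusted p = 0.066). It lies opposite abundant transcripts, and its reads are uncertain because the strand setting of the counting is not given in the sources used here.

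The ratio of mt-Co1 to mt-Cytb counts, which needs no scaling between libraries and serves only to compare groups, was 1.38 to 1.51 in PBS and 3.80 to 4.12 in IFN-γ. It was 6.00 to 6.19 with LE and IFN-γ, 4.79 to 5.20 with SE and IFN-γ, and 3.16 to 4.00 with PE and IFN-γ. Peptides without IFN-γ gave 0.845 to 1.27, below PBS. Mitochondrial transcripts are cut from long precursors, so a ratio shows unequal change and not which of both genes moved.

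**Figure D2:**
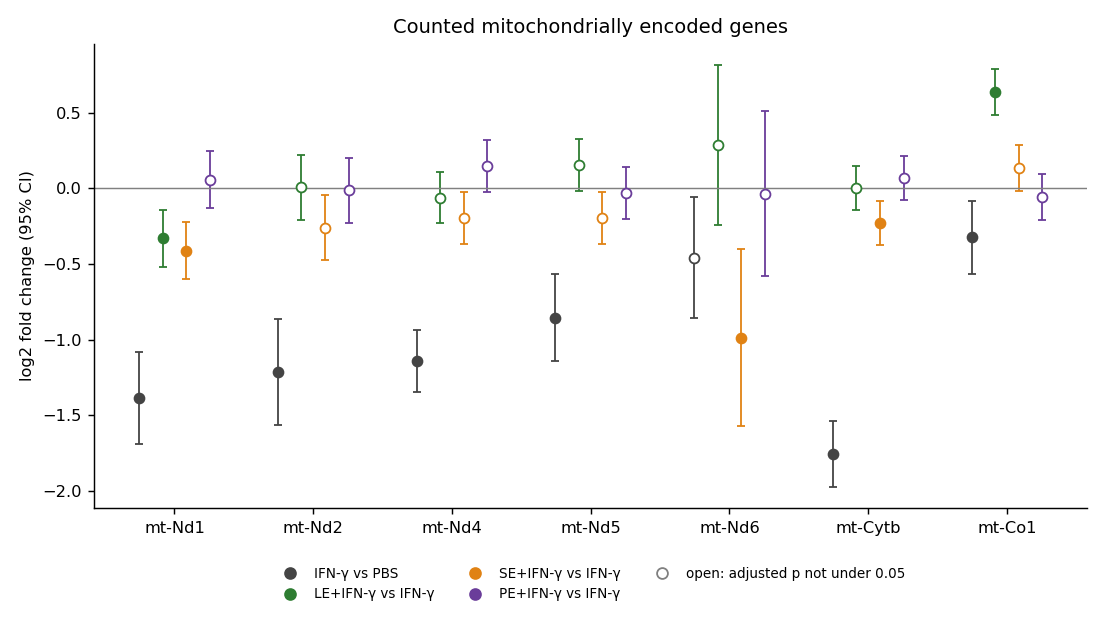
Log2 fold changes (y axis) of the 7 mitochondrially encoded genes with counts (x axis) in IFN-γ against PBS and in each peptide with IFN-γ against IFN-γ alone, with 95% confidence intervals. Filled points have an adjusted p below 0.05; mt-Co1 stands out with a fall of 0.32 in IFN-γ and a rise of 0.64 when LE was added.

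Among nuclear members, IFN-γ lowered some of every complex. In complex I, 16 of 37 tested genes fell and 1 rose. Ndufb3, an accessory subunit of the membrane arm, went from 61.3 to 65.8 CPM in PBS to 34.4 to 42.2 CPM in IFN-γ (log2 -0.74). Ndufs4, an accessory subunit whose loss causes complex I deficiency, was the single nuclear member that rose, from 73.9, 70.5 and 62.1 CPM to 84.5, 85.4 and 89.9 CPM (log2 0.35, SE 0.08, adjusted p = 0.0047). The groups did not overlap, yet without replicate 3 the call was lost (0.24, adjusted p = 0.10). In complex II, 3 of 4 fell: Sdhd (-0.67) and Sdhc (-0.46), which anchor the complex in the membrane, and the flavoprotein Sdha (-0.37). Sdhb, the iron-sulfur subunit, was not called (0.14, 95% CI -0.01 to 0.28).

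Complex III had 5 of 9 nuclear genes lower. Uqcrh, the hinge protein that helps cytochrome c1 meet cytochrome c, was measured at 316, 332 and 282 CPM in PBS and at 89.3, 115 and 97.8 CPM in IFN-γ. No nuclear member above 10 CPM fell further (log2 -1.60, SE 0.10, adjusted p = 2.9e-07). The core protein Uqcrc1 was not called (-0.05), and the median of the 9 genes was -0.19. In complex IV, 8 of 14 fell, among them Cox7b (-0.67) and Cox6c (-0.63), small subunits wrapped around the catalytic core. In complex V, 10 of 17 fell, led by Atp5k (subunit e, -0.93) and Atp5g3 (subunit c of the proton-carrying ring, -0.69). Atp5b, the catalytic β subunit, was at 1648, 1651 and 1703 CPM in PBS and at 1706, 1579 and 1705 CPM in IFN-γ. Its groups overlapped, and the interval of the difference was -0.15 to 0.17 on the log2 scale, while its partner in the head, Atp5a1, fell by 0.39.

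**Figure D3:**
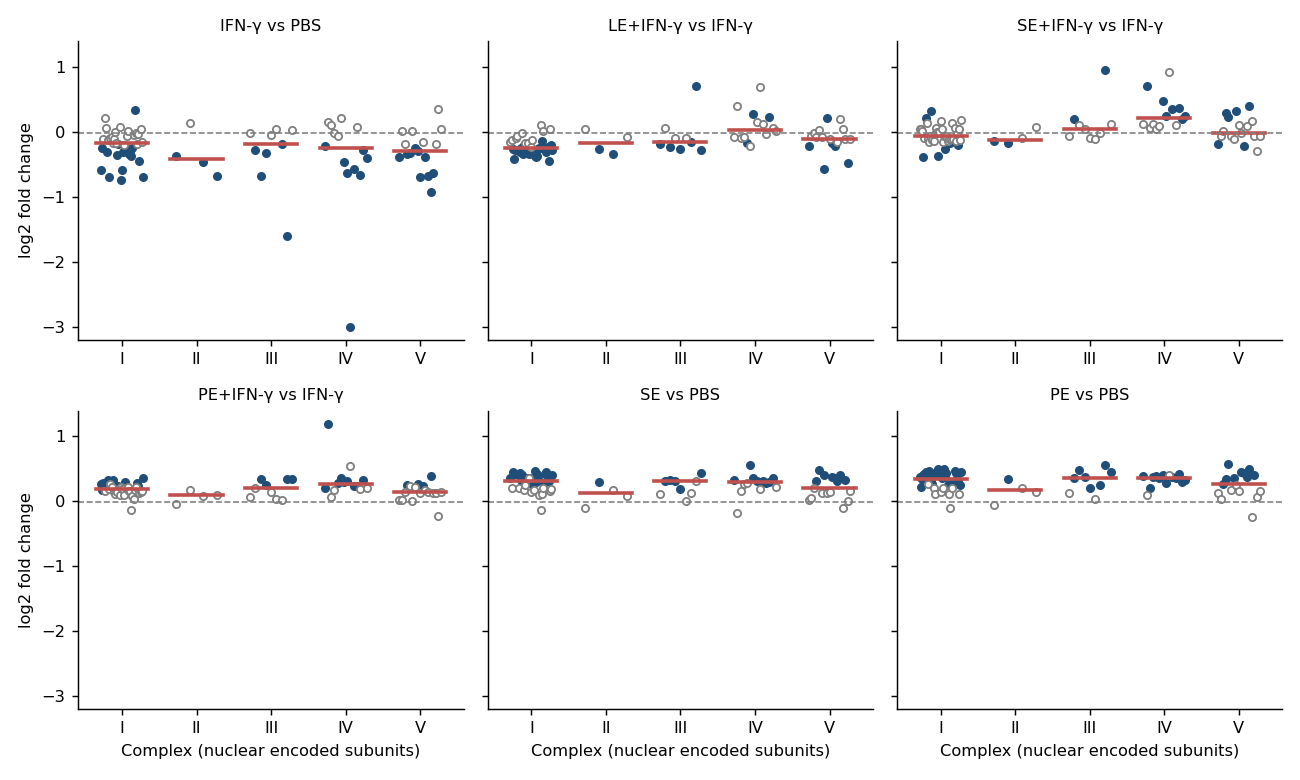
Log2 fold changes (y axis) of every tested nuclear member by complex (x axis) in 6 comparisons. Filled points have an adjusted p below 0.05, red bars are medians of the complex and the dashed line is the median of all genes tested; the points of complex I lie mostly below the line with LE and IFN-γ and above it with PE and IFN-γ, PE alone and SE alone.

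Adding LE to IFN-γ lowered complex I further and raised mt-Co1. Against IFN-γ alone, 25 of 37 nuclear genes of complex I fell and none rose (median -0.25), whereas in complex IV 2 of 14 rose and 1 fell (median 0.03). Over all 81 nuclear members 38 fell and 4 rose, none falling by more than 1.5-fold (5.93% of all genes did), against 24.8% of all genes called as lower and 25.7% as higher (50.5% in all). The count was between 30 and 35 with a replicate number left out, against 44. Longer transcripts were higher in this comparison (Spearman correlation of fold change with exon length across genes 0.21), and after subtraction of that trend the nuclear median went from -0.16 to -0.07, with 30 of 79 members above 0.

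Ndufs8, an iron-sulfur subunit near the ubiquinone site of complex I, read 180, 203 and 191 CPM in IFN-γ and 132, 145 and 143 CPM with LE. Every LE library was lower (log2 -0.44, SE 0.06, adjusted p = 1.4e-05). Ndufa12, an accessory subunit of the same arm, fell from 46.1 to 54.1 CPM to 37.1 to 40.3 CPM (log2 -0.41). Atp5g1, another gene for subunit c, was at 87.1, 101 and 91.0 CPM in IFN-γ and at 62.2, 62.3 and 61.9 CPM with LE (log2 -0.57, SE 0.08, adjusted p = 7.4e-06), while Atp5g2, which encodes the same mature protein, rose by 0.23. The latter shares 34.7% of its 100-base windows with other annotated genes and is uncertain. In complex II Sdhc (-0.33) and Sdhb (-0.26) were lower.

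Uqcrh went the other way, from 89.3, 115 and 97.8 CPM to 161, 158 and 174 CPM with LE, a log2 fold change of 0.72 (SE 0.09, adjusted p = 3e-06). The rise left it below every library without IFN-γ (at least 282 CPM). mt-Co1 rose from 5158, 4941 and 5336 CPM to 7614, 8546 and 7624 CPM (log2 0.64, SE 0.07, adjusted p = 1.2e-06), against 5630 to 7789 CPM in PBS. No other mitochondrial gene was called as higher. mt-Cytb differed by 0.00 (95% CI -0.14 to 0.15), mt-Nd5 by 0.15 (95% CI -0.02 to 0.33), and mt-Nd1 was lower by 0.33. The mt-Nd1 call was lost without replicate 3 (-0.19, adjusted p = 0.057).

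SE with IFN-γ gave a mixed picture. Of 81 nuclear members 15 rose and 9 fell, with a median of 0.02, in a comparison with 33.4% of all genes called (16.7% higher and 16.6% lower). Complex IV held 7 of the rises, among them Cox6b1 (0.48), which joins both monomers of the enzyme, and Cox7b (0.37), and had no fall among 14. Complex I had 5 falls, with Ndufa12 at -0.38, and 2 rises. Uqcrh rose most, to 204, 189 and 184 CPM (log2 0.96, SE 0.09, adjusted p = 2.4e-07). mt-Nd1 (-0.41) and mt-Cytb (-0.23) fell, and mt-Nd6 fell to 1.60, 1.53 and 3.33 CPM (-0.99). The mt-Cytb call was lost without replicate 2 or 3 (adjusted p = 0.066 and 0.067), and that of mt-Nd6 was lost without replicate 1 (-0.74) or 2 (-0.76). In all, 27 members were called, and 16 to 18 with a replicate number left out.

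PE with IFN-γ raised 29 nuclear members and lowered none, against 5.43% of all genes called as higher, 4.58% as lower and 10% in either direction. Complex I had 12 rises in 37, complex III 4 in 9, complex IV 9 in 14 and complex V 4 in 17, and no gene of complex II was called. Changes were small, with a nuclear median of 0.19, and only Cox4i2 passed 1.5-fold (0.448% of all genes did so upward). These calls depended on single replicates: no member was called without replicate 1 or without replicate 3, and 5 were called when all 8 groups were fitted together. The mitochondrial genes had a median of -0.01, and none of the 7 was called in edgeR (0 at an unadjusted p below 0.05 as well).

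The peptides were also set against each other at the same dose and time, in 3 pairs. LE with IFN-γ was lower than PE with IFN-γ for 64 of 81 nuclear members and higher for 2, against 29.9% of all genes lower and 30% higher (59.9% in all). In complex I, 34 of 37 were lower, with a median of -0.43. Among them were Ndufb7 (-0.67, SE 0.08) and Ndufv3 (-0.63, SE 0.08), accessory subunits of the membrane and matrix arms. Ndufs1, the large iron-sulfur subunit, was the exception at 0.24. In complex III Uqcrq, a small accessory subunit, was lower by 0.61, from 335 to 364 CPM with PE to 222 to 231 CPM with LE, and in complex V Atp5g1 was lower by 0.79. mt-Co1 was higher with LE by 0.70 (SE 0.07, adjusted p = 3.2e-07). Ribosomal genes moved the same way in this pair, with 76 of 83 genes of the cytosolic ribosome lower (median -0.35) and 57 of 77 of the mitochondrial ribosome (median -0.26), and their part in the result was not tested.

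LE with IFN-γ against SE with IFN-γ gave 37 nuclear members lower and 2 higher, while of all genes 16.5% were lower and 19.0% higher (35.6% in all). mt-Co1 was higher by 0.50 (adjusted p = 9.9e-05), mt-Nd6 by 1.27, mt-Nd5 by 0.35 and mt-Cytb by 0.23. The mt-Cytb call was lost without replicate 2 (0.12) and that of mt-Nd6 without replicate 1 (0.90). The count fell from 43 to 17 without replicate 1 and to 26 without replicate 2. The correlation of fold change with exon length was 0.35 here, and after that trend the nuclear median went from -0.17 to -0.03, with 28 of 79 members above 0. Of the cytosolic ribosome 52 of 83 genes were lower and none higher. For SE with IFN-γ against PE with IFN-γ, 38 nuclear members were lower and 1, Uqcrh, was higher (0.61), against 17.1% and 17.3% of all genes (34.4% in all); 44 members were called in all, and 19 without replicate 3. After the exon length trend (correlation 0.21) the nuclear median went from -0.18 to -0.10, and 33 of 83 genes of the cytosolic ribosome were lower and 1 higher. mt-Nd1 (-0.47), mt-Nd4 (-0.35) and mt-Cytb (-0.30) were lower with SE. The call of mt-Co1 in that pair (0.20, adjusted p = 0.045) was lost without replicate 1 or 3 (0.14 and 0.12). Atp5b stayed uncalled in the 3 pairs, with intervals from -0.20 to 0.11.

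**Figure D4:**
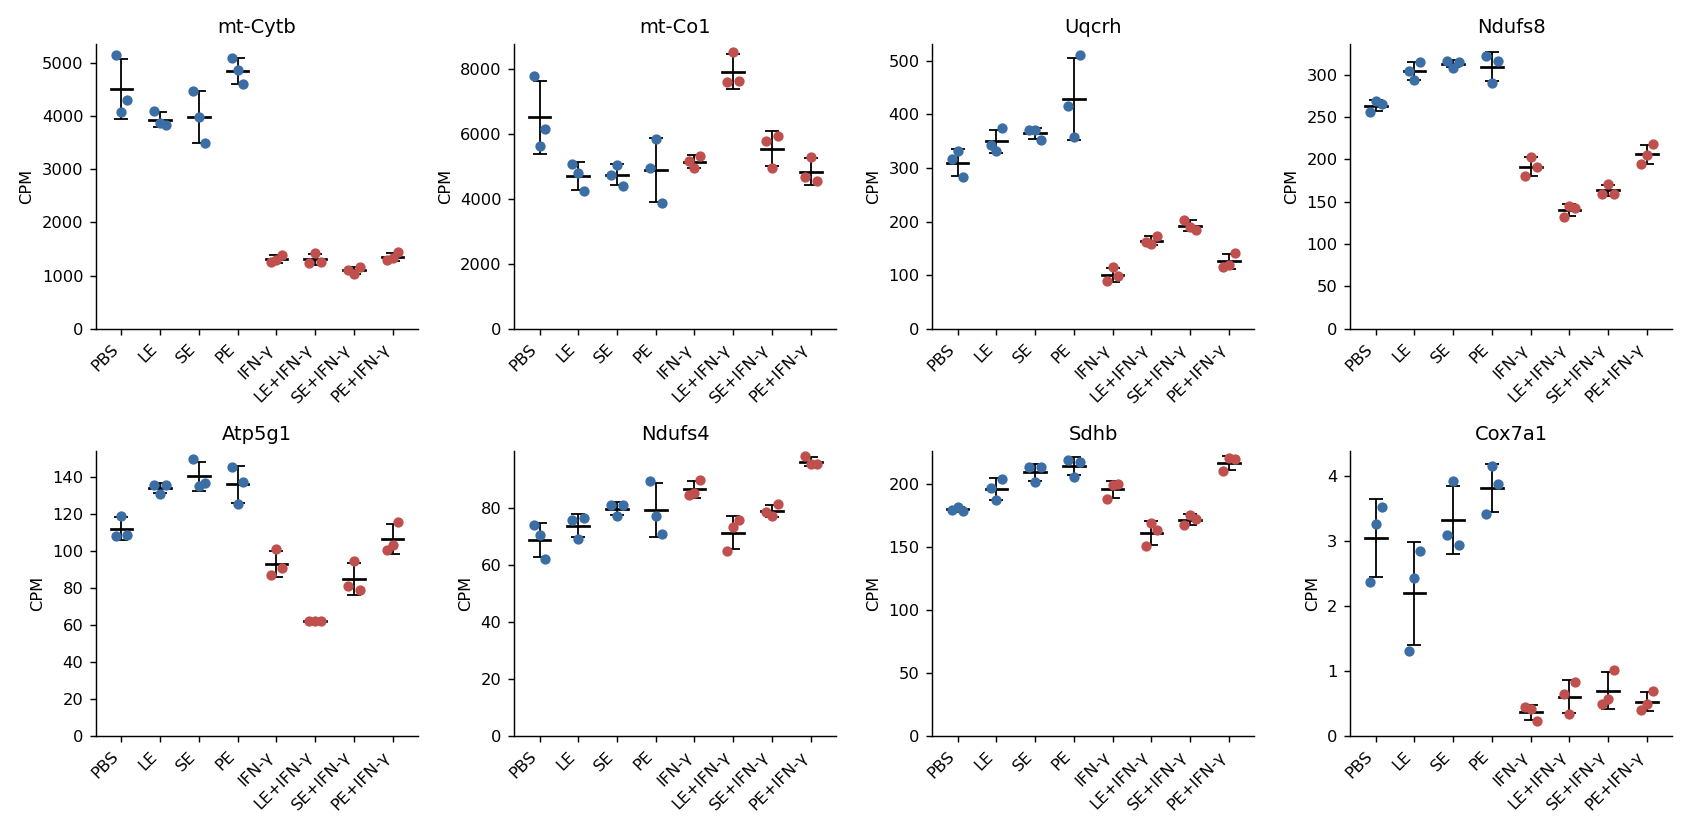
CPM (y axis) of 8 members in each library by group (x axis), with mean and SD of 3 libraries. Uqcrh drops from 282 CPM or more without IFN-γ to 204 CPM or less with it, mt-Co1 is highest with LE and IFN-γ among groups with IFN-γ, and Atp5g1 is lowest there.

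Without IFN-γ, SE and PE went with higher nuclear members, and no member was called for LE. Against PBS, 46 of 81 nuclear members rose with SE (median 0.31) and 57 with PE (median 0.34), and none fell. Of all genes 7.77% rose and 6.58% fell with SE (14.3% called), and 9.98% rose and 9.98% fell with PE (20% called). None of these nuclear changes exceeded 1.5-fold, as did 0.676% and 0.652% of all genes upward. For LE the median was 0.18, and 72 of 81 estimates were above 0, against 6066 of all 12420 genes. No member of 88 passed the threshold in edgeR, where 0.0242% of all genes were called. Of the 88 members, 48 had an unadjusted p below 0.05 in edgeR, against 1953 of all 12420 genes. DESeq2 called 8 members, and its share over all genes is not given here. Examples with PE are Atp5e, subunit ε of the rotor (163, 167 and 157 CPM in PBS, then 231, 204 and 250 CPM, log2 0.58), Uqcrh (0.56), Ndufb7 (0.50) and Cox7b (0.43). Sdhb, at 179, 182 and 179 CPM in PBS, read 213, 201 and 213 CPM with SE (0.29) and 219, 206 and 217 CPM with PE (0.34). Among the mitochondrial genes mt-Nd6 rose with PE (0.87) to 6.73 to 14.4 CPM, a call lost without replicate 1 (0.91) or 2 (0.69), and mt-Nd4 rose by 0.29, a call lost without any 1 of the replicates.

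Several measures moved with these calls. The cytosolic ribosome, a list of other short and abundant transcripts, had 72 of 83 genes higher with SE and 76 with PE (medians 0.34 and 0.43), and the mitochondrial ribosome 34 and 52 of 77. With 1 replicate number left out the counts fell from 46 to 0 for SE (without replicate 1 or 3) and from 59 to 0 or 5 for PE (without replicate 1 or 3), and without PBS replicate 1 alone 30 members were called for SE. Shorter transcripts were higher in general, with a Spearman correlation across all genes between exon length and fold change of -0.44 for SE and -0.45 for PE over 12074 genes. Genes are not independent replicates, so no p is given. Nuclear members had a median exon length of 1675 bases against 4189 for all genes. After subtraction of that trend their median was 0.11 for SE and 0.17 for PE, with 65 and 70 of 79 members above 0. For LE against PBS the correlation was -0.37 and the median went from 0.18 to 0.09, with 64 of 79 members above 0. The same trend was present, in the other direction, for LE with IFN-γ against PE with IFN-γ (0.35), where the nuclear median moved from -0.34 to -0.13. For PE with IFN-γ against IFN-γ the correlation was -0.39 and the median went from 0.19 to 0.10, and for SE with IFN-γ the median crossed 0, from 0.02 to -0.03. In IFN-γ against PBS the correlation was -0.04 and the median kept near its value, at -0.18. The part of transcript length in these results was not tested further.

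**Figure D5:**
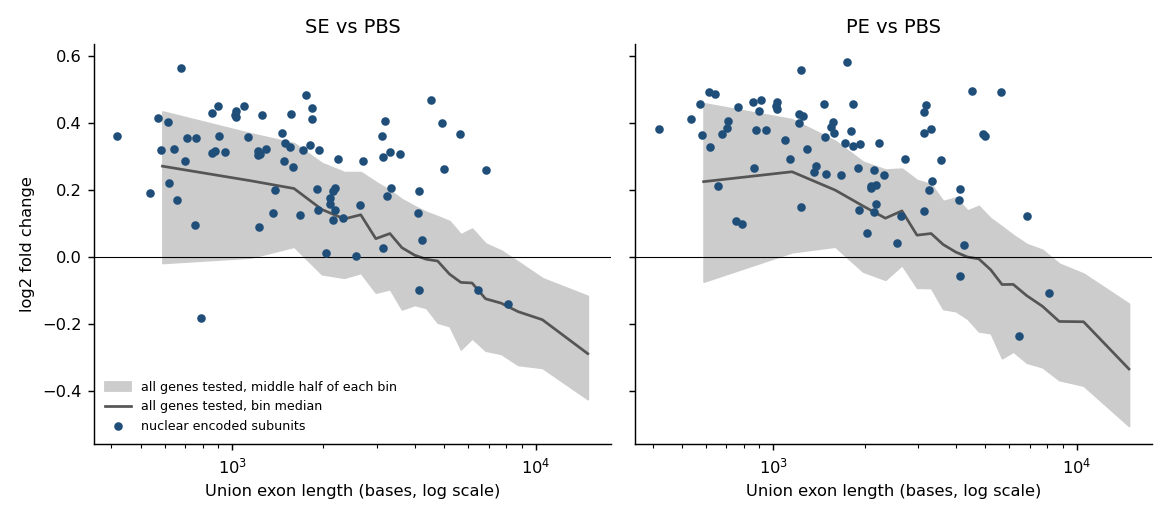
Log2 fold change (y axis) against union exon length in bases (x axis, log scale) for SE (left) and PE (right) against PBS. Points are nuclear members, the line and band the median and interquartile range of all genes in bins of length; short genes lie higher in both, and after that trend 65 (SE) and 70 (PE) of 79 members lie above 0.

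Within each peptide, IFN-γ lowered most of the chain. LE with IFN-γ against LE gave 70 of 81 nuclear members lower and none higher (32.7% of all genes lower, 65.9% called), SE with IFN-γ against SE 68 lower and 1 higher (28.8% lower, 57.5% called), and PE with IFN-γ against PE 58 lower and 2 higher (24.5% lower, 49.9% called). The medians of the nuclear members were -0.52, -0.48 and -0.33, and -0.30, -0.34 and -0.29 after the exon length trend. Of the cytosolic ribosome 75, 73 and 55 of 83 genes fell. All 4 genes of complex II were lower in the first and second comparison and 3 in the last. mt-Cytb fell by 1.61, 1.89 and 1.89 in these comparisons, which have no library in common, while mt-Co1 rose by 0.73 with LE (adjusted p = 2.2e-06) and was not called with SE (0.19, 95% CI -0.02 to 0.40) or PE (-0.06, 95% CI -0.27 to 0.15).

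The change of the IFN-γ response by a peptide was tested as an interaction. With LE, 50 of 88 members were called, 47 nuclear ones downward, in a test that called 38.5% of all genes (19.6% downward). Complex I supplied 29 of them in 37, with Ndufs8 at -0.70 (SE 0.10, adjusted p = 4.6e-06). mt-Co1 had an upward term of 1.05 (SE 0.15, adjusted p = 1.2e-05). With SE, 32 members were called, 29 nuclear ones downward and Uqcrh upward (19.8% of all genes called, 10.3% downward and 9.45% upward), with Ndufa12 at -0.81 and Sdhb at -0.46. With PE no member was called by edgeR or DESeq2, and 0% of all genes were called by edgeR. An unadjusted p below 0.05 was seen for 16 of 88 members. The share of all genes at that unadjusted level is not given here. These 3 tests share the PBS and IFN-γ libraries, and 25 to 42 members were called for LE and 11 to 27 for SE when a replicate number was left out. After the exon length trend the nuclear median went from -0.31 to -0.14 for LE (24 of 79 members above 0) and from -0.22 to -0.13 for SE (22 of 79).

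Some subunits exist as isoforms tied to tissue. Per length, the ubiquitous forms Cox4i1 (410 CPM per kilobase), Cox6a1 (386), Cox6b1 (325) and Cox8a (308) led the nuclear genes of complex IV. Of the forms known from muscle, Cox6a2 was present at 81.8 to 141 CPM, and Cox7a1 was at 2.36, 3.26 and 3.52 CPM in PBS and at 0.451, 0.409 and 0.236 CPM in IFN-γ (log2 -3.01, SE 0.33, adjusted p = 2.7e-05). The fall was seen in all groups with IFN-γ, although at most 96 counts stood behind any value. Cox4i2, the form tied to low oxygen, was at 0.941 to 1.23 CPM in IFN-γ and at 2.76, 2.46 and 1.93 CPM with PE and IFN-γ (log2 1.20, SE 0.22, adjusted p = 0.0065), from at most 61 counts. That call was lost without replicate 1 (1.21, adjusted p = 0.11) or 3 (1.29, adjusted p = 0.090). The testis form Cox6b2 and the hypoxia-linked Ndufa4l2 were at or near 0. Some symbols do not match present assignments. Ndufa4 is now counted as a subunit of complex IV, Cox7a2l serves supercomplex assembly, Atp5s is a coupling factor, and Atp5sl is linked to the assembly of complex I, while all 4 were counted here by symbol.

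Other mitochondrial genes were counted from lists for IFN-γ against PBS, where 20.2% of all genes rose and 19.5% fell. Of 45 tested assembly factors 4 rose (8.89%) and 8 fell (17.8%), with a median of -0.02 and estimates up to 0.52. Cox20 (-1.04) and Pet100 (-0.91), both for complex IV, were among the falls. Of 77 genes of the mitochondrial ribosome 19 rose and 16 fell (median -0.01), and of 83 of the cytosolic ribosome 2 rose and 3 fell (median -0.06). Of 23 genes for mitochondrial transcription and RNA 4 fell (17.4%) and 1 rose (4.35%). Their median was 0.03, with 12 estimates above 0, 11 below and the highest at 0.53. The transcription factor Tfb2m fell by 0.93, the helicase Twnk by 0.57 and Lrpprc, which stabilises mitochondrial mRNA, by 0.24. Of 9 regulators 3 rose, among them Myc (1.72) and Nrf1 (0.77), and 2 fell, Ppargc1b (-0.75), a coactivator of oxidative genes, and Gabpa (-0.37). Of 18 genes of the TCA cycle list 8 fell and 1 rose, the rise being Acod1 (1.89), which makes itaconate, an inhibitor of complex II. Of 15 electron carrier genes 3 fell and 2 rose, and of 17 glycolysis genes 12 fell and 1 rose (median -0.46).

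With LE and IFN-γ against IFN-γ, where 24.8% of all genes fell and 25.7% rose, 14 of 45 assembly factors and 31 of 77 mitochondrial ribosome genes fell, and 2 and 4 rose (median -0.12 in both). Lrpprc fell by 0.41 and Tfam, which packages mitochondrial DNA, by 0.31, while Hif1a (0.97), Acod1 (2.27) and Myc (2.50) rose. They are single genes named from longer lists. Those lists are not counted here for LE or SE with IFN-γ, so the named genes do not give their direction. With SE and IFN-γ Lrpprc fell by 0.58 and Tfam by 0.34, and 10 of 17 glycolysis genes rose and none fell (median 0.31), against 16.7% and 16.6% of all genes. With PE and IFN-γ none of 23 transcription and RNA genes, 18 TCA cycle genes or 15 electron carriers was called, whereas 14 of 77 mitochondrial ribosome genes and 64 of 83 cytosolic ribosome genes rose (medians 0.16 and 0.25), against 5.43% of all genes.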

How the data were processed

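RAW264.7 cells were profiled by RNA-seq in 48 libraries, 6 per group, of which the 24 labelled by letter (3 per group) gave the results. The authors counted uniquely aligned reads per gene with featureCounts against GRCm38.p5, and the deposited values are raw counts. The aligner and the strand setting are not given in the sources used here. The authors' own tests used DESeq2 1.16.1 in R 3.4.1.

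Counts were tested with edgeR 4.0.16 in R 4.3.3 (TMM scaling, filterByExpr, quasi-likelihood F test, Benjamini-Hochberg adjustment over all genes tested), with calls at an adjusted p under 0.05 and a second count over 1.5-fold. Each fit held the groups compared, and the interactions all 8. CPM are counts scaled by the library total. All adjusted p-values are from edgeR unless DESeq2 (1.42.0) is named. The code was tested on simulated data. Alternatives were RLE scaling, DESeq2, no filter, 1 fit of all groups, the replicate number as a block, both label series, scaling without mitochondrial genes, and leaving out each replicate number. Leaving out PBS replicate 1 was added after seeing the data. The members and lists were chosen with earlier results of these data known. Genes named were core subunits, isoform pairs and mitochondrial genes, fixed for all comparisons, plus up to 2 called members per direction and complex with the largest change at a mean of at least 10 CPM, and a few others chosen after their values were seen. No pair of libraries of a group agreed within sampling noise (lowest chi-square per degree of freedom 3.89 over 24 pairs).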

Additional observations from a re-analysis of the deposited data

Results flagged for a closer look

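The response to IFN-γ differed between cells with LE and cells with PBS for 50 of 88 members tested, by the interaction term in edgeR. The term was negative for Atp5g1 (-0.88), Atp5j (-0.47), Cox6a1 (-0.39), Cox6a2 (-0.65), Ndufa12 (-0.70), Ndufs8 (-0.70), Sdhb (-0.45), Sdhc (-0.47), Uqcr11 (-0.47) and Uqcrq (-0.57), on the log2 scale. It was positive for Uqcrh (0.49), mt-Co1 (1.05) and mt-Nd5 (0.51). Without replicate 1 the term of Uqcrh was 0.39 (adjusted p = 0.19) and that of mt-Nd5 was 0.40 (adjusted p = 0.079). The call of mt-Nd5 was also lost without replicate 2 (0.45). Cox6a1 lost its call without replicate 1 (-0.36) or 3 (-0.33), and Uqcr11 lost its own without replicate 1 (-0.47, adjusted p = 0.0507).

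With SE the same test called 32 members. Terms were negative for Atp5g1 (-0.51), Atp5j (-0.58), Cox6a2 (-0.47), Ndufa12 (-0.81), Ndufb2 (-0.73), Sdhb (-0.46), Sdhc (-0.28), Uqcrc1 (-0.29), Uqcrq (-0.33) and mt-Nd6 (-1.35), and positive for Uqcrh (0.65) and mt-Co1 (0.52). Of these, calls lost without replicate 1 were Uqcrh (0.53), mt-Co1 (0.34), Atp5g1 (-0.45), mt-Nd6 (-1.03), Cox6a2 (-0.55), Sdhc (-0.28), Uqcrc1 (-0.21) and Uqcrq (-0.30). Ndufb2 lost its call without replicate 2 (-0.68) or 3 (-0.59). Only Atp5j, Ndufa12 and Sdhb kept their calls with any 1 replicate number left out. Both interactions share the PBS and IFN-γ libraries.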

How the results depend on the processing

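With a replicate number left out, counts of members called ranged from 33 to 42 for IFN-γ against PBS, 0 to 42 for SE and 0 to 57 for PE against PBS, 0 to 0 for LE, 30 to 35, 16 to 18 and 0 to 38 for LE, SE and PE with IFN-γ against IFN-γ, 17 to 37 for LE against SE, 57 to 69 for LE against PE and 19 to 42 for SE against PE (all with IFN-γ), 71 to 75, 68 to 75 and 47 to 66 for IFN-γ within LE, SE and PE, and 25 to 42, 11 to 27 and 0 to 0 for the interactions. Without PBS replicate 1, SE against PBS went from 46 to 30. LE against PBS went from 0 to 8 with DESeq2, 11 without the filter and 1 with the replicate block. The PE interaction went from 0 to 1 without the filter. With 1 fit of all groups, SE with IFN-γ went from 27 to 17 and PE with IFN-γ from 29 to 5, and the replicate block raised the latter to 45. The labels do not say what a replicate number shares, and not every same-number correlation was over 0.1 (-0.114 to 0.235, median 0.049 against -0.023 for other numbers, 25 of 84 over 0.1). Of the 24 libraries 16 were closest to their own number, a hint from the data and not from the design. The block took away no call of the named genes. Scaling without mitochondrial genes altered none of 715 calls of named genes, and RLE scaling 5. The cause of these shifts was not tested.

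With both label series, where 12 of the 24 added libraries went against their labels, 0 members were called in all but 1 of the comparisons that had calls, and 1 for PE with IFN-γ against PE. Log2 fold changes then changed sign for Atp5g1 (-0.082), Cox6a2 (-0.15) and Ndufs8 (-0.0244) in PE against PBS. Against IFN-γ alone they did so for Uqcrh (-0.12) in LE with IFN-γ, for mt-Cytb (0.0316), mt-Nd1 (0.0693) and mt-Nd6 (0.067) in SE with IFN-γ, and for Cox7a2 (-0.0545), Uqcr11 (-0.0167) and Uqcrh (-0.43) in PE with IFN-γ. Between peptides with IFN-γ they did so for Ndufs1 (-0.0824), Sdha (-0.0771), mt-Cytb (-0.86), mt-Nd5 (-0.47) and mt-Nd6 (-0.34) in LE against SE, for Uqcrc2 (0.00229) in LE against PE, and for Atp5a1 (0.0541), Ndufa4 (0.10), Ndufs8 (0.15), Ndufv2 (0.00727), Sdhc (0.0668), Uqcr11 (0.12), mt-Cytb (0.74), mt-Nd1 (0.68), mt-Nd4 (0.21) and mt-Nd6 (0.37) in SE against PE. The others were Cox6a2 (0.0687) and mt-Co1 (-0.14) in LE with IFN-γ against LE, and Uqcrh (-0.31) and mt-Co1 (-0.0866) in the LE interaction.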
